A study of Mus musculus with 16 samples.

Results

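The genes described here carry out the response of mammalian cells to low oxygen and the breakdown of glucose to lactate, 35 genes in all, listed by name. The list was drawn up from known function, but with earlier results of these data known, so its counts are not those of a blind list. A gene was read from the probe set (the group of short array probes that measures 1 transcript) with the highest mean over all 16 arrays among those that name that gene alone. This gave 31 of the 35 genes, out of 18193 genes read in the series. Gapdh and Bnip3l appear only on probe sets shared with other genes, and Eno1 and Gpi1 have no entry under these symbols in the probe set annotation used, so these 4 genes were not analysed here. All 31 genes read passed the filter on low values.

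The arrays come from EB5, a mouse embryonic stem cell (ESC) line. EB5 NERT cells carry, on a pCAG expression vector, an inducible form of the intracellular domain of Notch1 that acts once hydroxytamoxifen (OHT) is added. EB5 control cells carry the vector without that insert. NERT mesodermal cells, grown for 4 d on collagen IV in serum medium, gave 2 arrays each with OHT and cycloheximide (CHX, a blocker of protein synthesis), with CHX alone, with OHT alone and with neither. The other 8 conditions have 1 array each. They are NERT ESC kept for 4 h in a medium that favours ectoderm (ESCe) or mesoderm (ESCm), control ESCm and control mesodermal cells, each with and without OHT. Cells received 1 µM OHT during 4 h, and CHX (50 µg/ml) over the same 4 h. Values are expression intensities on the authors' scale, and a gene was called higher or lower at an adjusted p under 0.05 from limma over all tested probe sets. Shares of all probe sets given beside limma calls are for that adjusted threshold. No such share was computed for counts at an unadjusted p, so nothing is read from those counts. Fold changes are on the log2 scale after adding 25, which understates the change of dim genes. Nothing in the sources used here says that replicate arrays came from separate cultures. Within NERT mesodermal cells the p-values therefore measure how far these arrays scatter, and that scatter may be technical. The 8 conditions with 1 array each have no replicate scatter. Comparisons that include them take their error from the NERT mesodermal pairs. That error also holds how far the OHT change differs between the ESC media and between the control populations. In such bulk samples fewer cells of a type and less RNA per cell cannot be told apart.

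When oxygen is scarce, the prolyl hydroxylases Egln1 and Egln3 no longer mark the transcription factor subunit Hif1a for destruction. Hif1a then joins Arnt on DNA at a short core, ACGTG or GCGTG, and switches on genes for glucose import, glycolysis, lactate export and oxygen supply. The same enzymes also serve glycolysis in ESC and early embryonic cells at ordinary oxygen. Hif1a is controlled mostly at the level of its protein, so its transcript need not follow its activity. The oxygen level of the cultures is not given in the sources used here.

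The promoters of 32 of the 35 genes were found in the RefSeq table of the reference (build GRCm38.p6), which holds for each gene the 250 bases before its start and 50 after it. The letters ACGTG or GCGTG stood on either strand in 26 of these 32 windows (81.2%), against 8035 of 14452 windows of the genes on the arrays (55.6%). At least 2 such matches stood in 20 of the 32 (62.5%), against 28.9% of all windows, and ACGTG alone in 19 (59.4%), against 23.2%. The palindrome CACGTG counts on both strands. The members' windows were also richer in G and C, with a median of 65.0% against 58.7%, and the part of base composition in the motif counts was not tested. The 250 bases before the start are shown for 4 genes that were higher in mesodermal cells of both lines and for Hif1a, which was not, with the matches in capitals. The regions are chr11:120948817-120949066 on the plus strand for Slc16a3, chr7:138909507-138909756 on the minus strand for Bnip3, chrX:106186850-106187099 on the plus strand for Pgk1, chr7:46845554-46845803 on the plus strand for Ldha and chr12:73907617-73907866 on the plus strand for Hif1a. CACGT and CACGC are the same letters read from the other strand.
Slc16a3: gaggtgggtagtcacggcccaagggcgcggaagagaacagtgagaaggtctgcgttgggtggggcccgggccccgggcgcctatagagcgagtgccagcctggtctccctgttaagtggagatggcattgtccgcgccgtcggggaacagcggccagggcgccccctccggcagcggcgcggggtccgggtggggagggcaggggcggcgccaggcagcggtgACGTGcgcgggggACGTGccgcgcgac
Bnip3: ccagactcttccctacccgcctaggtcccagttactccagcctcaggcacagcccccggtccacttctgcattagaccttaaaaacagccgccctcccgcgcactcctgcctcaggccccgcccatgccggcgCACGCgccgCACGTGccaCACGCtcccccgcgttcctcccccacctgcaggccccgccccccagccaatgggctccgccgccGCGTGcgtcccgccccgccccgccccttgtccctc
Pgk1: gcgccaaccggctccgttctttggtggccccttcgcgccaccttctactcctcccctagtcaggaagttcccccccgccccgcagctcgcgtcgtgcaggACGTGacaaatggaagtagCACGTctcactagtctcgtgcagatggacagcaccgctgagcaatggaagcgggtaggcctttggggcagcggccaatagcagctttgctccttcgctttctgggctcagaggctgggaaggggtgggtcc
Ldha: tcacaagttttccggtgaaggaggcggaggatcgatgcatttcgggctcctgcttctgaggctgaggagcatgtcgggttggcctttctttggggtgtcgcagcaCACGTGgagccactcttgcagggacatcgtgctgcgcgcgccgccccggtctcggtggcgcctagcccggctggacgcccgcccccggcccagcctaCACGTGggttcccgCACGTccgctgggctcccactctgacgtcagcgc
Hif1a: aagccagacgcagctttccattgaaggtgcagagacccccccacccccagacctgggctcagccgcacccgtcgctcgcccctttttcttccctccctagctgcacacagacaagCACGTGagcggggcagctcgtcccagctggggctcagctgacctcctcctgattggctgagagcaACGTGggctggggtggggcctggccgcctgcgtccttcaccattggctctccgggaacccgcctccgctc
Such letters are common, and they also stand in the window of Hif1a. A match is a string of bases and not a measured binding site. The windows of Tpi1, Gpi1, Aldoa, Pkm, Hk1 and Vegfa hold no match, although Tpi1, Aldoa and Vegfa were among the genes higher in mesodermal cells.

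Mesodermal cells carried more of most of these transcripts than ESC. In the NERT line without OHT 23 of the 31 genes were higher in mesodermal cells than in ESCm and 0 were lower, that is 74.2% of the genes, where 22.9% of all 25847 tested probe sets were called higher and 11.3% lower. In the control line 22 were higher and 0 lower (71.0%), where 12.8% of all probe sets were higher and 8.16% lower. The median log2 difference over the 31 genes was 1.66 for NERT and 1.15 for control cells, and over all genes tested it was 0.12 and 0.04. The fitted level of NERT ESCm without OHT draws on all NERT ESC arrays, through the OHT effect shared by both media. A log2 difference given below for the NERT line therefore need not equal that of the single arrays printed beside it. The lines called 21 genes in common. Hk2 and Pdk1 were called in the NERT line alone and Pkm in the control line alone, and none of these 3 passed the test of the difference between lines. The remaining 7 genes, Hif1a, Hk1, Pfkp, Pgam1, Pfkfb4, Car9 and Kdm3a, passed in neither line. Medium, substrate and days in culture change together with the population, so their parts in this difference cannot be told apart.

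**Figure D1:**
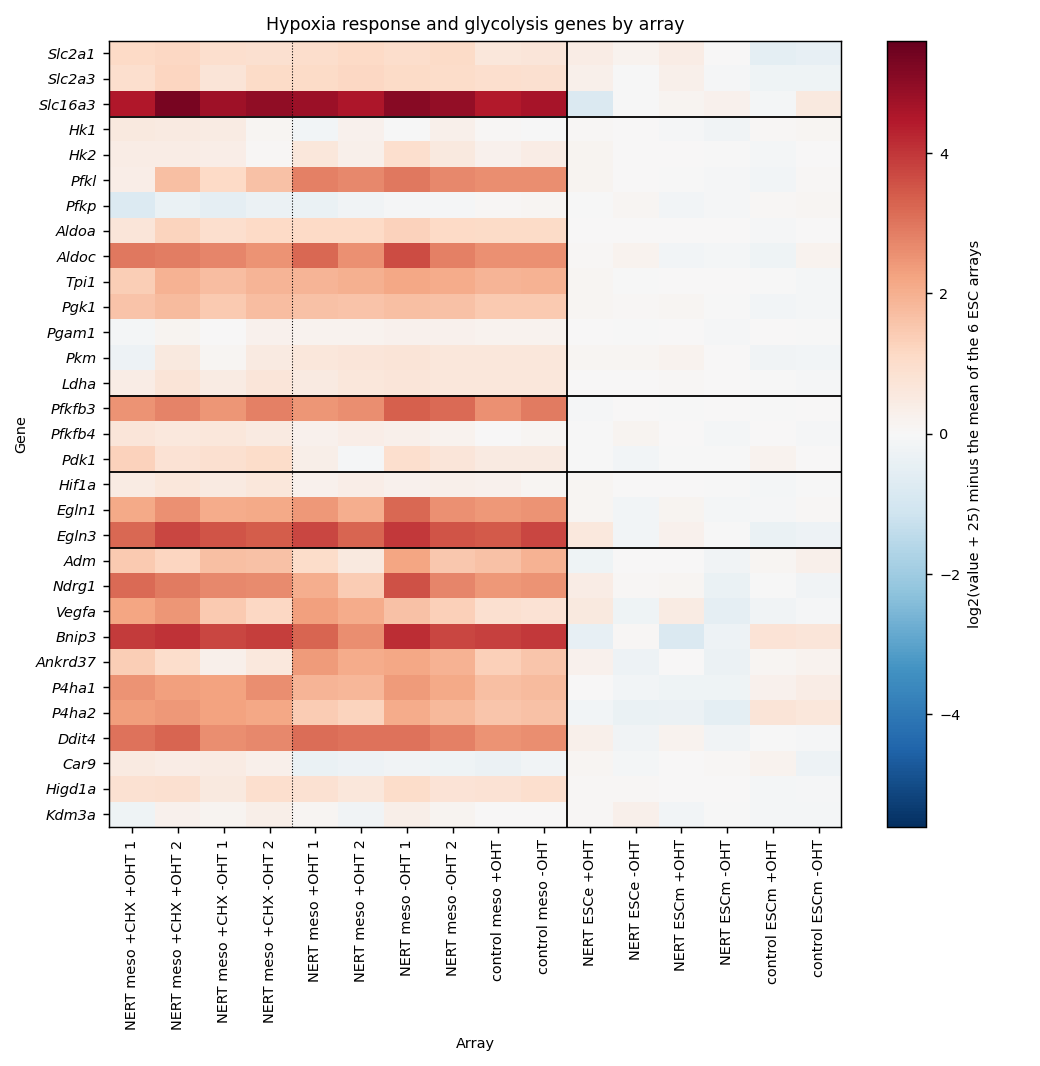
Heat map of the 31 genes (rows, in blocks for transport, glycolytic enzymes, flux regulators, oxygen sensing and other hypoxia response) on the 16 arrays (columns), coloured by log2(value + 25) minus the mean of the 6 ESC arrays; meso is mesodermal cells, and the solid vertical line parts mesodermal from ESC arrays. Of the 31 genes, 25 have all 6 mesodermal arrays without CHX above all 6 ESC arrays, and Slc16a3, Bnip3 and Egln3 are the darkest rows there.

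All 6 mesodermal arrays without CHX lay above all 6 ESC arrays for 25 of the 31 genes, and for 0 genes below, where 18.2% of all probe sets lay above and 14.2% below. Of these 25 genes, 22 also stayed above the ESC arrays on all 4 arrays with CHX. The share of all probe sets that did so was not computed, so nothing particular to these genes is read from that count. These ESC and mesodermal arrays include both states of OHT.

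The transcript of a lactate exporter differed most among the transport genes. Slc16a3, which moves lactate out of the cell, read 1910.2 and 1663 in NERT mesodermal cells without OHT, against 42.3 in NERT ESCm without OHT. Control arrays with and without OHT read 1214 and 1366 in mesodermal cells, against 27.3 and 57.7 in ESCm. The ESC arrays lie near the bottom of the scale and every mesodermal array far above it, and the log2 differences were 4.58 (SE 0.27, adjusted p = 2.83e-07) for NERT and 4.32 (SE 0.24, adjusted p = 5.48e-07) for control cells. The glucose importers Slc2a1 and Slc2a3 had smaller differences. Slc2a1 was higher by 0.97 in NERT and 1.15 in control cells, and Slc2a3 by 1.10 and 1.17. All 3 transport genes thus passed in both lines.

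Of the 11 glycolytic enzymes read, 7 were higher in mesodermal cells in each line. Aldoc, an aldolase best known from brain, read 1418 and 770.1 in NERT mesodermal cells without OHT, against 80.5 in NERT ESCm without OHT. With and without OHT, control cells read 649.7 and 644 in mesodermal cells, against 71.4 and 104 in ESCm, and the log2 differences were 3.32 and 2.59. The other aldolase, Aldoa, was higher by 1.19 and 1.09. Both aldolases were higher, with the larger difference in Aldoc.

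Pfkl, the liver form of phosphofructokinase, which commits sugar to glycolysis, read 4834 and 4099 in NERT mesodermal cells without OHT, against 587 in NERT ESCm without OHT. The control arrays, with and without OHT, read 3775 and 3794 in mesodermal cells, against 549.8 and 637 in ESCm. The log2 differences were 2.91 (SE 0.34) and 2.63 (SE 0.31) in the NERT and the control line. Pfkp, the platelet form of the same enzyme, had differences of -0.02 and 0.01 that passed in neither line. The 2 forms of this enzyme therefore stood apart in the same arrays.

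Further down the pathway, Tpi1, which interconverts the triose phosphates, read 8110.3 and 7612 in NERT mesodermal cells without OHT, against 1802 in NERT ESCm without OHT. Its control arrays with and without OHT read 6699 and 7037 in mesodermal cells, against 1799 and 1687 in ESCm, with log2 differences of 2.14 in NERT and 1.96 in control cells. The spread among mesodermal arrays was small beside this gap. Pgk1, which makes the first ATP of the pathway, was higher by 1.66 (SE 0.12) and 1.60 (SE 0.10). Ldha, which turns pyruvate into lactate, was higher by 0.63 and 0.69. Pkm, pyruvate kinase, missed the threshold in the NERT line at 0.62 (adjusted p = 0.05) and passed in the control line at 0.84 (adjusted p = 0.0111).

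The hexokinases, which trap glucose in the cell, stood apart from each other. Hk2 was higher by 0.81 in the NERT line (adjusted p = 0.00411) and had a difference of 0.40 that missed the threshold in the control line (adjusted p = 0.098). Hk1 and Pgam1 had differences between -0.08 and 0.32, and passed in neither line.

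**Figure D2:**
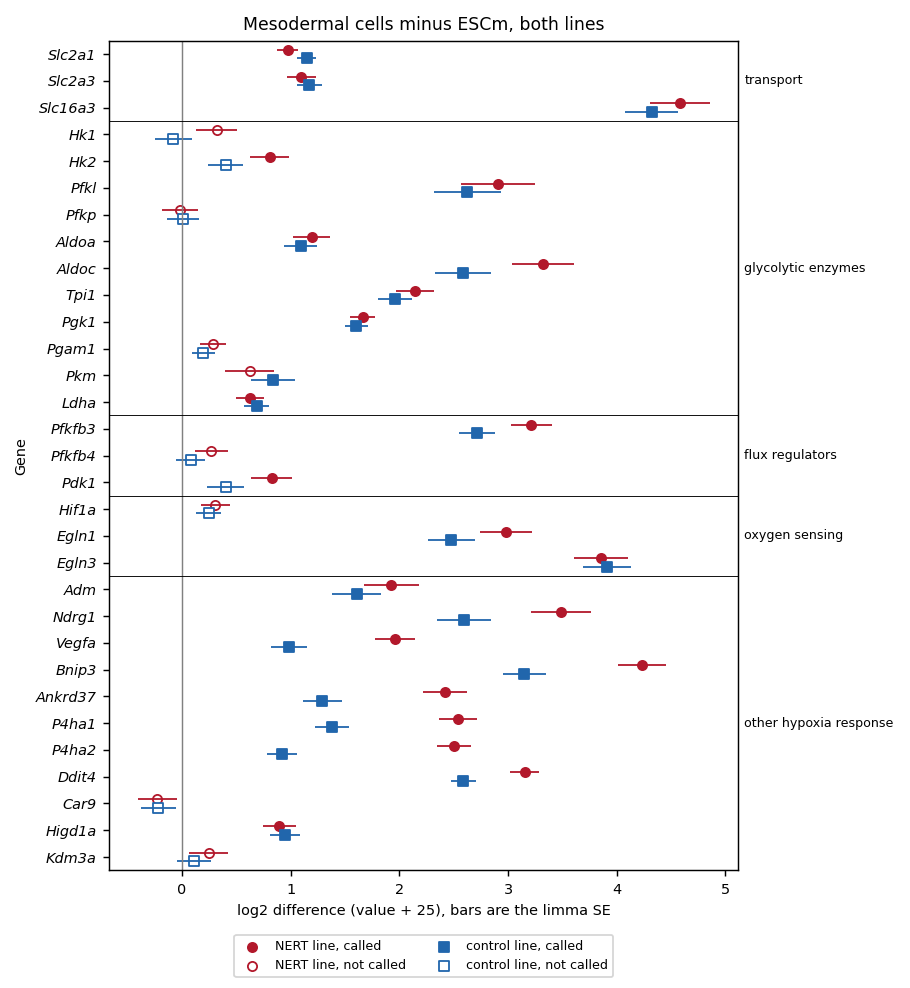
Log2 difference, mesodermal cells minus ESCm, for each of the 31 genes (rows, grouped by role) in the NERT line without OHT (red circles) and in the control line (blue squares); bars are the limma SE and filled symbols passed the test. No filled symbol lies left of 0, and Slc16a3, Egln3 and Bnip3 lie farthest right in both lines.

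Among the regulators of glycolytic flux, Pfkfb3 stood out. It makes the sugar phosphate that activates phosphofructokinase, and read 665 and 580.5 in NERT mesodermal cells without OHT, against 44.3 in NERT ESCm without OHT. Control arrays with and without OHT read 370.1 and 477 in mesodermal cells, against 42.7 and 42.9 in ESCm. The 6 ESC arrays lay together between 40.6 and 44.3, and the log2 differences were 3.21 and 2.72. Pfkfb4, of the same family, had differences of 0.27 and 0.08 and was not called. Pdk1, a kinase that shuts off pyruvate dehydrogenase and so keeps pyruvate out of mitochondria, was higher by 0.82 in the NERT line (adjusted p = 0.00534). In the control line its difference of 0.40 did not pass (adjusted p = 0.122).

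The oxygen sensors rose while the factor they control did not pass the test. Egln3 read 1278 and 934 in NERT mesodermal cells without OHT, against 58.5 in NERT ESCm without OHT. With and without OHT, control cells read 878 and 1094 in mesodermal cells, against 39.9 and 43.8 in ESCm. The log2 differences were 3.85 (SE 0.25) and 3.91 (SE 0.22) in the NERT and the control line. Egln1 read 1858 and 1175 in NERT mesodermal cells without OHT, against 164 in NERT ESCm without OHT. Its control arrays with and without OHT read 1080.1 and 1166 in mesodermal cells, against 174 and 188 in ESCm, and the log2 differences were 2.98 and 2.48. Both hydroxylase transcripts are themselves known targets of Hif1a.

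Hif1a itself read 2445 and 2568 in NERT mesodermal cells without OHT, against 2025 in NERT ESCm without OHT. The control arrays, with and without OHT, read 2477 and 2277 in mesodermal cells, against 1943 and 2059.9 in ESCm. Its 6 mesodermal arrays without CHX all lay above its 6 ESC arrays, but by little. The log2 differences of 0.31 (SE 0.13, adjusted p = 0.0849) and 0.24 (SE 0.12, adjusted p = 0.163) passed in neither line.

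Of the 11 other hypoxia response genes read, 9 were higher in each line. Bnip3, a mitochondrial protein that promotes the removal of mitochondria, read 3178 and 2415 in NERT mesodermal cells without OHT, against 125 in NERT ESCm without OHT. Control arrays with and without OHT read 2514 and 2775 in mesodermal cells, against 286 and 265 in ESCm, and the log2 differences were 4.23 and 3.15. Ndrg1, a protein induced by hypoxia and other stress, read 1189 and 662 in NERT mesodermal cells without OHT, against 54.6 in NERT ESCm without OHT. In NERT cells without OHT the mesodermal arrays of both genes were many times brighter than the ESCm array. In the control line with and without OHT, Ndrg1 read 533 and 560.4 in mesodermal cells, against 75.7 and 63.9 in ESCm, and its log2 differences were 3.49 and 2.59.

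Ddit4, which restrains mTOR signalling under stress, read 6082 and 5346 in NERT mesodermal cells without OHT, against 623 in NERT ESCm without OHT. Its control arrays with and without OHT read 4216 and 4463 in mesodermal cells, against 712 and 689 in ESCm. The log2 differences of 3.15 (SE 0.13) and 2.59 (SE 0.12) are many times their errors. Vegfa, the main growth signal for blood vessels, read 382 and 305 in NERT mesodermal cells without OHT, against 66.5 in NERT ESCm without OHT. With and without OHT, control cells read 219 and 208 in mesodermal cells, against 89.9 and 101 in ESCm. The groups did not overlap in either line, and the log2 differences were 1.96 and 0.99.

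The vasodilator peptide gene Adm was higher by 1.93 and 1.61 in the NERT and the control line, and Ankrd37, an ankyrin repeat protein, by 2.42 and 1.29. Higd1a, a small mitochondrial protein, was higher by 0.90 and 0.95. The catalytic subunits of collagen prolyl hydroxylase, P4ha1 and P4ha2, were higher by 2.54 and 2.50 in NERT cells and by 1.38 and 0.92 in control cells. The exceptions were Car9, a carbonic anhydrase widely used as a marker of hypoxia, and Kdm3a, a histone demethylase. Car9 was dim throughout, between 33.4 and 41.2 on the 6 mesodermal arrays without CHX, against 37.7 to 61.4 on the 6 ESC arrays. Its differences of -0.23 and -0.22 were below 0 and did not pass. Kdm3a had differences of 0.24 and 0.11 and did not pass.

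Other probe sets of the called genes gave the same picture. In the NERT line 29 of 29 further probe sets had the sign of the main one and 25 passed, and in the control line 27 of 27 had it and 22 passed. Hk2, Ldha, Pdk1 and Higd1a were lost in the NERT line without its single ESCm array without OHT, where adjusted p ran from 0.065 to 0.146. Pkm was lost in the control line without any 1 of the 4 control arrays (adjusted p from 0.134 to 0.154), and Vegfa without control ESCm or control mesodermal cells with OHT (adjusted p = 0.0614 and 0.0613).

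Related genes were followed in lists drawn up alongside the members. Of 21 further hypoxia targets tested, 12 were higher and 1 lower in mesodermal cells of the NERT line, and 10 and 1 in the control line. Among them Bhlhe40, a transcription factor of the clock and hypoxia response, was higher by 2.99 in NERT and 2.68 in control cells, and Vldlr, a lipoprotein receptor, by 2.84 and 1.80. Hmox1, which degrades haem, fell by 0.97 and 1.07 on the log2 scale. Of all probe sets 22.9% and 12.8% were higher in these comparisons.

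In the HIF pathway itself, 3 of 12 genes tested were higher and 2 lower in the NERT line, where 22.9% and 11.3% of all probe sets were. In the control line 2 were higher and 1 lower, where 12.8% and 8.16% of all probe sets were, so these counts lie near the background. Epas1, another HIF alpha subunit, read 136 and 179 in NERT mesodermal cells without OHT, against 1699.8 in NERT ESCm without OHT. The control arrays, with and without OHT, read 259 and 258 in mesodermal cells, against 1428 and 1471 in ESCm. Epas1 was therefore lower in mesodermal cells in both lines, with log2 differences of -3.21 and -2.38. Hif3a, a further HIF alpha subunit, was higher by 1.57 and 1.35, and Arnt2, a partner subunit, by 0.98 and 0.52.

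The counts of the remaining lists are read against the same shares of all probe sets, 22.9% higher and 11.3% lower for NERT and 12.8% and 8.16% for control cells. Of 15 further glycolysis genes, 3 were higher in NERT and 4 in control cells, with 0 lower in either. The further monocarboxylate carrier Slc16a1 was higher by 0.95 and 0.54. Of 20 genes of pyruvate oxidation and the citrate cycle, 3 were higher and 1 lower in the NERT line, and 1 was higher and 1 lower in the control line. Mpc1, which carries pyruvate into mitochondria, fell by 1.34 and 0.95 on the log2 scale, and Pdk3, another kinase that blocks pyruvate dehydrogenase, was higher by 0.63 and 0.70. Of 12 respiratory chain genes, Ndufa4l2, a known hypoxia target in mitochondria, was higher in both lines at 2.41 and 1.21. In the NERT line 2 genes of that list were lower, Cycs and Ndufs1. The list medians in the NERT and the control line were 0.81 and 0.44 for further hypoxia targets, 0.03 and 0.19 for the HIF pathway, 0.14 and 0.27 for further glycolysis genes, 0.16 and -0.02 for pyruvate and citrate cycle genes and -0.08 and -0.03 for the respiratory chain.

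The labels were set against markers of the populations. The streak marker T has no entry under that symbol in the probe set annotation and was not read. Of 7 mesoderm and primitive streak markers tested, Eomes, Evx1, Fgf8 and Mixl1 were higher in mesodermal cells of both lines. Pdgfra was higher in NERT and lower in control cells. The 7 tested also include Kdr and Mesp1, which ran from 105.6 to 462.4 and from 151.5 to 332.2 over the 16 arrays. Their differences between the populations are not given here, so no direction is read for these markers. The summed level of these 7 ran from 3033 to 4060 on the NERT mesodermal arrays without CHX and was 1490 and 1530.0 on the control ones, against 574.5 to 688 in NERT ESC and 684 to 773 in control ESCm. The 6 ESC markers summed to 8106 to 8570 in NERT and to 13537 to 13718 in control mesodermal cells, against 17257 to 18026 in NERT ESC and 18112 to 18357 in control ESCm, so transcripts of ESC were still present in the mesodermal cells. Markers of blood and endothelium summed to at most 249.5 on any mesodermal array, with Gata1 and Tal1 below 90 everywhere. No array read 0 for a marker. Induction was visible in Hes5, a direct Notch target, which read 1609 and 1348 in NERT mesodermal cells with OHT, against 25.1 and 23.2 without it. In control mesodermal cells Hes5 read 20.1 with OHT, against 21 without it. Array medians ran from 42 to 46.9 over the 16 arrays.

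The size of the change differed between the lines for 2 genes. The difference between lines in the mesoderm minus ESCm change, NERT minus control, was 1.58 for P4ha2 (SE 0.21, adjusted p = 0.0035) and 1.16 for P4ha1 (SE 0.23, adjusted p = 0.0344), where 1.12% of all probe sets passed in this direction. P4ha2 read 844 and 704 in NERT mesodermal cells without OHT and 618 in control mesodermal cells, against 116 in NERT ESCm and 296 in control ESCm. P4ha1 read 1144 and 938 in NERT mesodermal cells without OHT and 728 in control mesodermal cells, against 162 in NERT ESCm and 272 in control ESCm. For both genes the NERT arrays were lower than the control array in ESCm and higher in mesodermal cells. Bnip3, Ankrd37 and Vegfa had differences of 1.08, 1.13 and 0.97 that did not pass (adjusted p = 0.0985, 0.0641 and 0.0789).

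Within ESCm without OHT, 1 of the 31 genes differed between the lines, P4ha2, at -1.23 for NERT minus control (adjusted p = 0.00979), where 0.159% of all probe sets were lower. Within mesodermal cells without OHT 0 genes passed in limma, where 5.9% of all probe sets did. Of the 31 genes, 8 had an unadjusted p under 0.05, a level at which all probe sets were not counted. The lines also differed in markers. The signed difference of the mesoderm minus ESCm change, NERT minus control, was above 0 and passed for Evx1, Mixl1 and Pdgfra of 7 mesoderm markers and for Foxa2, Gata6 and Sox17 of 4 endoderm markers tested. Gata6 and Sox17 were not called in the NERT line (-0.20 and 0.41) and were lower in mesodermal cells of the control line (-1.99 and -1.20). The 6 endoderm markers read summed to 130 to 310 in NERT and to 234.0 and 236 in control mesodermal cells, against 224 to 260.5 in NERT ESC and 664 to 671 in control ESCm. Their part in the line difference was not tested. The calls on P4ha1 and P4ha2 were lost with the 12 conditions as separate groups (adjusted p = 0.251 and 0.0614), and both were lost without any 1 of the 4 control arrays or without the NERT ESCm array without OHT (adjusted p from 0.0536 to 0.454). P4ha1 was also lost without either NERT ESCe array, NERT ESCm with OHT or the first NERT mesodermal array without OHT (adjusted p from 0.117 to 0.145), and with quantile normalization (0.0584). The other probe set of P4ha1 had a difference of 0.66 that did not pass (adjusted p = 0.271). The P4ha2 call within ESCm was lost without any 1 of the 8 ESC and control mesoderm arrays (adjusted p from 0.0592 to 0.833).

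The medium of the ESC had no detectable effect with 1 array per medium and OHT state, both states being used. Between ESCe and ESCm of the NERT line 0 of the 31 genes passed in limma, as did 0% of all probe sets, and 1 of the 31 had an unadjusted p under 0.05.

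Blocking protein synthesis changed few of these genes past the threshold, and Ankrd37 and Pfkl fell most. With CHX and without OHT, 1 of the 31 genes was higher in NERT mesodermal cells and 4 were lower, where 21.1% of all 23971 tested probe sets were higher and 11.7% lower. With CHX in the presence of OHT, 6 were higher and 2 lower, where 26.5% of all probe sets were higher and 14% lower. The members' share was near that background among genes lower without OHT and below it in the other 3 cases. The median log2 change of the 31 genes was 0.09 with OHT and -0.16 without OHT, and over all genes tested 0.17 and 0.11. With quantile normalization the members' median with OHT was -0.05, so its sign depends on the scaling.

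**Figure D3:**
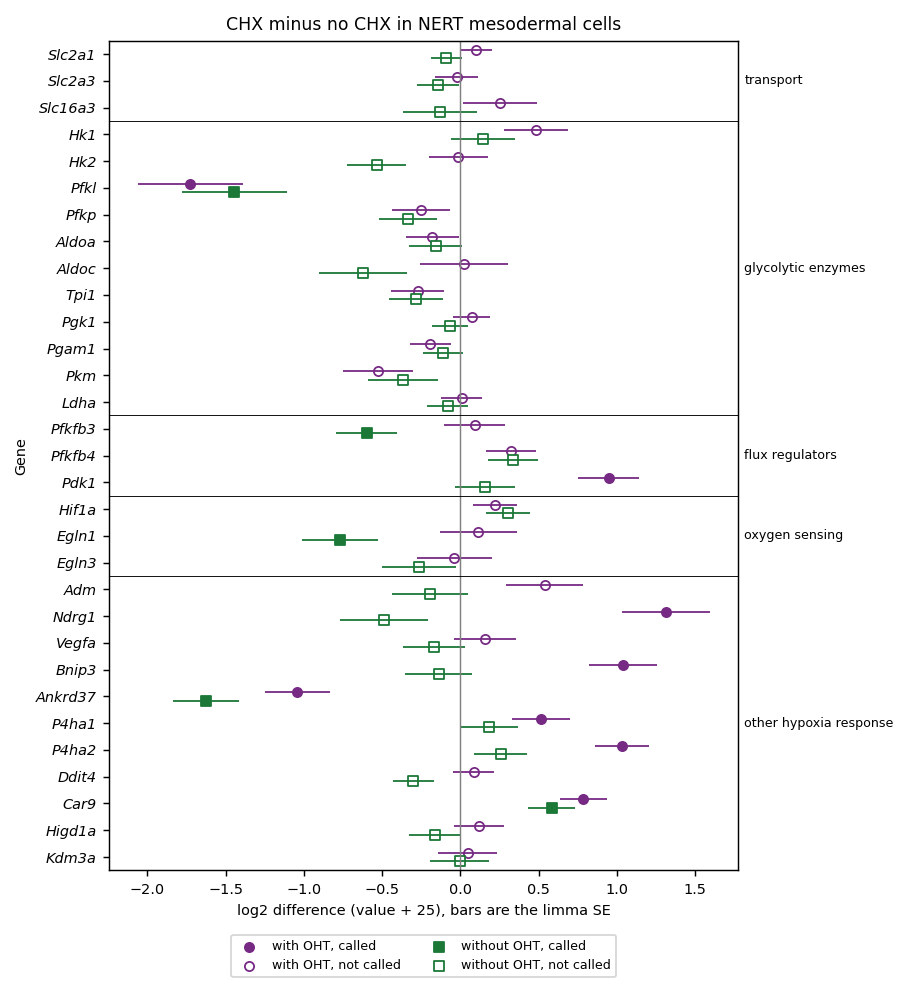
Log2 difference, CHX minus no CHX, in NERT mesodermal cells for each of the 31 genes (rows, grouped by role), with OHT (purple circles) and without OHT (green squares); bars are the limma SE and filled symbols passed the test. Ankrd37 and Pfkl lie left of 0 in both states, and Ndrg1, Bnip3, P4ha2 and Pdk1 are filled right of 0 with OHT and open without it.

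Ankrd37 and Pfkl fell under CHX in both states. Ankrd37 read 56.6 and 76.1 with CHX, against 277 and 235 without CHX, in cells without OHT, a log2 change of -1.63 (SE 0.21, adjusted p = 0.000313). In cells with OHT it read 150.2 and 107 with CHX, against 324 and 256 without CHX, a change of -1.04 (adjusted p = 0.00275). Its CHX arrays without OHT were not far above the 6 ESC arrays, which lay between 29.4 and 55.6. Pfkl read 1339.7 and 1958 with CHX, against 4834 and 4099 without CHX, in cells without OHT. In cells with OHT it read 798 and 1983 with CHX, against 4413 and 4051 without CHX. The log2 changes of Pfkl were -1.73 with OHT and -1.44 without OHT, the groups did not overlap, and its 2 other probe sets fell too and passed in both states. The 2 CHX arrays with OHT lie far apart, and without the first of them the change was -1.08 and still passed. The first CHX array of each state also read low in Atp5b, a subunit of ATP synthase singled out after its values were seen, at 5622 against 8108 on the second with OHT and 4982 against 8154 without OHT. With CHX and OHT, the enzymes Pfkp, Aldoa, Tpi1, Pgk1, Pgam1, Pkm and Ldha also read lower on the first array, Pkm at 4648 against 8278. Hk1, Hk2 and Aldoc read higher on it. RNA quality was not checked, and its part in the change of Pfkl was not tested. Without OHT the call on Pfkl was lost without the first array without CHX or the first with CHX (adjusted p = 0.0522 and 0.0766).

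Egln1 and Pfkfb3 fell under CHX without OHT. Egln1 read 843 and 871 with CHX, against 1858 and 1175 without CHX, a log2 change of -0.77 (adjusted p = 0.0343). Pfkfb3 read 352 and 458 with CHX, against 665 and 580.5 without CHX, a change of -0.60 (adjusted p = 0.037). For Egln1 the first array without CHX is the far one, and without it the change was -0.44. The call on Egln1 was lost without 3 of the 8 arrays in turn (adjusted p from 0.097 to 0.303), and that on Pfkfb3 likewise (adjusted p from 0.0962 to 0.258).

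Car9 was higher with CHX in both states, though it stayed dim. It read 79.1 and 66.9 with CHX, against 40.9 and 39.7 without CHX, in cells without OHT, a log2 change of 0.58 (adjusted p = 0.0143). In cells with OHT it read 81.9 and 78.0 with CHX, against 33.4 and 38.4 without CHX, a change of 0.79 (adjusted p = 0.00229). All 4 CHX arrays lay above the other arrays of NERT mesodermal cells. Only the CHX groups brought Car9 past the filter of 50 in the fit of these 8 arrays. Their means were 72.98 without OHT and 79.95 with OHT, against 40.29 and 35.89 without CHX. With a filter of 100 it was not tested. The filter and the test thus rest on the same CHX arrays, so nothing beyond the array values is read from these calls. Without OHT the call was lost without 3 of the 8 arrays in turn (adjusted p from 0.0752 to 0.12).

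A further 5 genes passed as higher with CHX where OHT was present and not where it was absent, but the difference between these CHX effects passed for 0 of the 31 genes. Ndrg1 read 899 and 748 with CHX and OHT, against 399 and 248 with OHT alone, a log2 change of 1.31 (SE 0.28). Bnip3 read 2742 and 2956, against 1729 and 1089, a change of 1.04. P4ha2 read 1016 and 1067, against 527 and 467, a change of 1.03. For each of these genes the groups stood apart, and for Ndrg1 and Bnip3 the arrays with OHT alone were the lowest of all NERT mesodermal arrays. Pdk1 read 5026 and 3600.2 with CHX and OHT, against 2537 and 1899 with OHT alone, a change of 0.95. P4ha1 read 1268 and 1075, against 822 and 798, a change of 0.51 (adjusted p = 0.0459) that was lost when any of 5 of the arrays was left out, with adjusted p from 0.0713 to 0.153.

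These rises were not carried by all probe sets. The other 4 probe sets of Ndrg1 changed by -0.23 to 0.14 with CHX in the presence of OHT and did not pass, and without OHT they changed by -1.52 to -0.23, with 3 called lower. The other 2 probe sets of Pdk1 changed by 0.10 and 0.36 with OHT, and the other probe set of P4ha1 by -0.20. The mesoderm markers fell with CHX as well, 6 of 7 tested without OHT and 5 of 7 with OHT, and their sum ran from 992 to 1382 on the 4 CHX arrays of NERT mesodermal cells, against 3033 to 4060 on the 4 without CHX. Markers of other cell types were higher with CHX, Pax6 and Sox1 of neuroectoderm, Klf4 and Sox2 of ESC, Sox17 of endoderm and Col1a1 of fibroblasts in both states, and Foxa2, Gata6, Col1a2 and Zfp42 with OHT. The ESC marker Pou5f1 was lower with OHT. The 4 fibroblast markers summed to 797 to 1161 with CHX, against 318 to 442 without CHX, the 6 endoderm markers to 377 to 583, against 130 to 310, and the 4 neuroectoderm markers to 663 to 1363, against 269 to 893. Egr1, an immediate-early gene that CHX is known to raise, read 11723 and 12159 with CHX, against 195 and 184 without CHX, in cells without OHT. The part of these changes in those of the members was not tested.

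OHT, which activates the Notch1 construct in NERT cells, moved few of these genes past the threshold. In NERT mesodermal cells without CHX, 1 of the 31 genes was lower with OHT and 0 were higher, where 0.28% of all probe sets were lower and 0.613% higher. That gene was Ndrg1, which read 399 and 248 with OHT, against 1189 and 662 without OHT, a log2 change of -1.42 (SE 0.28, adjusted p = 0.0463). The OHT arrays lay below the others with no overlap. The call was lost without 7 of the 8 arrays in turn, the change running from -1.83 to -1.01, and the other 4 probe sets of Ndrg1 changed by -1.11 to 0.05 and did not pass.

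Several members had changes that missed the threshold in the main fit, which did not pair arrays by replicate number. Bnip3 read 1729 and 1089 with OHT, against 3178 and 2415 without OHT, a log2 change of -1.0 (adjusted p = 0.0704). Adm read 90.3 and 56.6 with OHT, against 230.4 and 133 without OHT, a change of -1.05 (adjusted p = 0.098). For both genes the OHT arrays lay below the others with no overlap. With a term for replicate number, Ndrg1, Bnip3 and Adm were called lower (limma adjusted p = 0.00596, 0.028 and 0.0175). The replicate numbers are not said to mark a shared batch. A second probe set of Adm changed by -1.48 and passed (adjusted p = 0.0469). Pfkfb3 had a change of -0.70, Pdk1 of -0.67, Egln1 of -0.64 and P4ha2 of -0.61, with adjusted p from 0.182 to 0.459. Over the 31 genes 24 changes were below 0 and the median was -0.15, against -0.05 over all genes. For 16 of the 31 genes both OHT arrays lay below both arrays without OHT, where 25.1% of all probe sets did, and for 3 genes above, where 13.4% did. In the control line with OHT 0 of the 31 genes passed in limma, as did 0% of all probe sets, and 0 had an unadjusted p under 0.05.

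**Figure D4:**
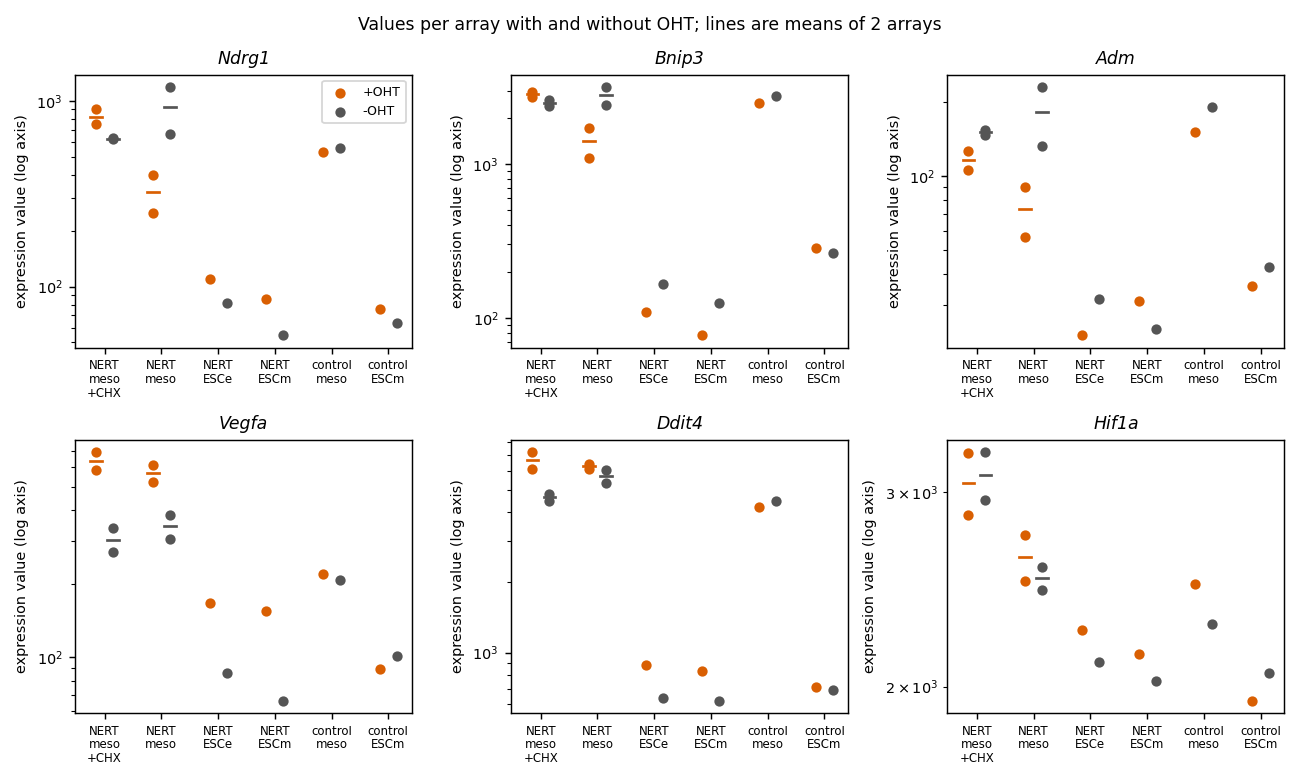
Expression values (log axis) of Ndrg1, Bnip3, Adm, Vegfa, Ddit4 and Hif1a on each of the 16 arrays, with OHT (orange) and without OHT (grey), in NERT mesodermal cells with and without CHX, NERT ESCe and ESCm, and control mesodermal cells and ESCm; short lines are means of 2 arrays. In NERT mesodermal cells without CHX the OHT points of Ndrg1, Bnip3 and Adm sit lower, while Vegfa sits higher with OHT in all 4 NERT conditions.

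Hif1a read 2495 and 2747 in NERT mesodermal cells with OHT, against 2445 and 2568 without OHT, a log2 change of 0.06 that did not pass. Among the listed pathway genes, Epas1 was the only one called, reading 362 and 481 with OHT, against 136 and 179 without OHT, a change of 1.29 (SE 0.20, adjusted p = 0.0137). This HIF alpha subunit was thus higher with OHT, although it stayed below its level in ESC.

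Vegfa took the other direction. In NERT ESC, as a mean over both media, it was higher with OHT by 0.88 (SE 0.16, adjusted p = 0.0346), the only call among the 31 genes, where 0.507% of all probe sets were higher and 0.031% lower. It read 167 with OHT, against 86.0 without OHT, in ESCe. It read 154 with OHT, against 66.5 without OHT, in ESCm. In control ESCm it read 89.9 with OHT, against 101 without OHT, so the OHT array was the higher one in both NERT media and the lower one in the control pair, a difference between lines that was not tested. Of the listed pathway genes 1 was called here, Bhlhe40, higher by 0.92.

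In NERT mesodermal cells Vegfa read 613 and 524 with OHT, against 382 and 305 without OHT, a change of 0.69 (adjusted p = 0.194). With CHX it read 583 and 691 with OHT, against 337 and 269 without OHT, a change of 1.02 (adjusted p = 0.0534). All 4 NERT conditions had Vegfa higher with OHT without overlap, but in the main fits the test was passed in ESC only. With a term for replicate number it was also called in NERT mesodermal cells with CHX (limma adjusted p = 0.0305). The other probe set of Vegfa changed by -0.05 in ESC and by 0.08 and 0.07 in NERT mesodermal cells with and without CHX. The call in ESC was lost with ESCe alone and with ESCm alone (adjusted p = 1.0 and 0.939), and without any 1 of the 8 ESC and control arrays outside NERT mesoderm (adjusted p from 0.0769 to 0.988).

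With CHX present, OHT changed 0 of the 31 genes in limma, where 0.567% of all probe sets were higher and 0.0501% lower, and 3 had an unadjusted p under 0.05. These were Vegfa, Ddit4 at 0.53 and Ankrd37 at 0.74, all above 0. Ndrg1 read 899 and 748 with CHX and OHT, against 628 and 624 with CHX alone, a change of 0.38 (adjusted p = 0.942). The difference of the OHT response, with CHX minus without CHX, was 1.80 for Ndrg1 (SE 0.40, adjusted p = 0.387) and 1.18 for Bnip3 (adjusted p = 0.626). In limma 0 of the 31 genes passed that test, where 0.025% of all probe sets did. An unadjusted p under 0.05 was found for 6 genes, a level at which all probe sets were not counted. The OHT response of NERT mesodermal cells was also set against that of NERT ESC and of control cells, tests added after the values were seen. In limma 0 of the 31 genes passed either, where 0.031% and 0.437% of all probe sets did. An unadjusted p under 0.05 was found for 8 and 7 genes, again with no share of all probe sets at that level. The difference for Ndrg1 against NERT ESC was -1.83 (adjusted p = 0.133). An effect of CHX on the OHT response of these genes was therefore not detectable with 2 arrays a group.

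A criterion of size alone, with no test, asked for group means 2-fold or more apart that also differ by over 50. Ndrg1 and Adm met it as lower with OHT in mesodermal cells of the NERT line without CHX, where 0.242% of all probe sets were. Vegfa was higher in NERT ESCm and in NERT mesodermal cells with CHX, where 0.353% and 0.466% of all probe sets were. None of the 31 genes met it in ESCe, where 0.333% of all probe sets were higher and 0.0289% lower, nor in control ESCm (0.0266% and 0.0222%) or control mesodermal cells (0.0133% and 0.0111%).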

How the data were processed

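Affymetrix Mouse Genome 430 2.0 arrays measured 16 samples of the EB5 NERT and EB5 control lines. The authors deposited 1 expression intensity per probe set and array (45037 probe sets), which they computed with the model-based method of dChip after invariant-set normalization to 1 array. These intensities were used as deposited, and no array pair was identical. A probe set was kept where any group averaged 50 or higher, 25 was added before log2, and limma 3.58.1 (lmFit, eBayes with trend, R 4.3.3) was used in 2 fits. A fit of the 8 NERT mesodermal arrays (23971 probe sets) gave the OHT and CHX effects there, and a fit of all 16 arrays (25847 probe sets) the rest, with 1 OHT effect shared by both NERT ESC media and 1 by both control populations. Adjusted p-values are Benjamini-Hochberg over all probe sets tested. Of the probe sets 34945 name 1 gene, 932 several and 9160 none. The scripts were tested on simulated data. Values of every array are given for up to 10 called genes of largest change in a comparison, and for Hif1a and Vegfa. The members and lists were chosen with earlier results of these data known. Alternatives covered the added constant, the filter, quantile normalization, the probe set rule, the grouping, a replicate block and leaving out each array. RNA quality was not checked. The number of arrays limits the precision.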

Additional observations from a re-analysis of the deposited data

Results flagged for a closer look

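The mesoderm minus ESCm change differed between the lines for 2 genes by a test of that difference, NERT minus control. The difference was 1.16 on the log2 scale for P4ha1 (SE 0.23, limma adjusted p = 0.0344), a call kept in 12 of 23 alternative settings. It was 1.58 for P4ha2 (SE 0.21, limma adjusted p = 0.0035), kept in 17 of 23.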

How the results depend on the processing

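Of the 22 genes called higher in mesodermal cells of the control line, 20 kept their call in every setting tried, and so did 19 of 23 in the NERT line. So did 5 of 8 calls for CHX with OHT and 1 of 5 for CHX without OHT (Ankrd37), and 0 of the calls for OHT or between lines. None of these calls reversed in any setting tried. The median of the 31 genes for CHX with OHT did change sign, from 0.09 in the main fit to -0.05 with quantile normalization. OHT in NERT mesoderm without CHX called 0 genes with no filter, with quantile normalization and with the mean of all probe sets of a gene, and with CHX it called 1 with 100 added before log2 or with a group mean of 100 or more. CHX without OHT called 3 with no filter. OHT in NERT ESC called 0 with 100 added, no filter, the mean of all probe sets, 12 conditions as groups, ESCe alone and ESCm alone. The difference between lines called 1 with quantile normalization and 0 with 12 conditions as groups, and NERT minus control in ESCm 0 with 12 conditions. By fold, 1.5-fold gave 1 gene higher and 1 lower in ESCe, where 391 and 57 of all 45037 probe sets were. In NERT mesoderm it gave 1 higher and 7 lower, where 459 and 514 probe sets were. In NERT mesoderm with CHX it gave 2 higher and 0 lower, where 540 and 213 probe sets were. No minimum difference gave 1 lower in ESCe and 1 lower in control ESCm, where 2808 and 2308 probe sets were lower.

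Leaving out 1 array at a time gave 19 to 26 calls for mesoderm minus ESCm in the NERT line and 20 to 23 in the control line, 7 to 11 for CHX with OHT, 1 to 9 for CHX without OHT, 0 to 1 for OHT in NERT mesoderm with and without CHX and in NERT ESC, 0 to 4 for the difference between lines, 0 to 3 for NERT minus control in mesoderm and 0 to 2 in ESCm. Where this leaves 1 array in a group, that array is assumed to vary like the other groups. The replicate numbers are not said to mark a shared batch. Deviations of equal numbers correlated at 0.51 between NERT mesoderm with OHT alone and with neither drug. In the other pairs of groups they correlated at 0.01 to 0.21. With the replicate block, OHT in NERT mesoderm called 3 genes lower without CHX, Ndrg1, Bnip3 and Adm (adjusted p = 0.00596, 0.028 and 0.0175), and 1 higher with CHX, Vegfa (adjusted p = 0.0305), and CHX called 10 with OHT and 7 without OHT. Added after seeing the data, the OHT response of NERT mesoderm minus that of NERT ESC or of control cells called 0 genes (0 to 0 and 0 to 1 without single arrays).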
